A study of Rattus norvegicus with 32 samples.

Results

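Adrenomedullin and angiotensin are vasoactive peptides, and the genes described here are 8 that make, cleave or sense them, out of 32623 genes in the deposited tables. They were chosen by name as Adm, Calcrl, Ramp1, Ramp2 and Ramp3 of the adrenomedullin system and Agt, Ace and Agtr1a of the angiotensin system. The 32 RNA libraries were made from liver sinusoidal endothelial cells (LSECs) of rats. In the CCl4 model, Wistar Han males inhaled carbon tetrachloride, a hepatotoxin, with phenobarbital in the drinking water of that model. LSECs came from 5 rats after 2 weeks (acute), 5 rats after 6 weeks (fibrosis), 6 rats after 12 to 14 weeks (cirrhosis) and 6 untreated rats (healthy). The toxicant was stopped several days before isolation, in which the liver was perfused and digested and the cells were enriched on an iodixanol density gradient. A second experiment used thioacetamide (TAA), a hepatotoxin given into the peritoneum, and its control rats received saline. Its labels put 5 libraries in a group named control and 5 in a group named TAA control, all as Wistar Han, while the series design and the methods name Sprague-Dawley rats for that experiment. Which of the groups received TAA was not settled by these labels, so no disease direction was given to their difference.

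Adrenomedullin, the peptide encoded by Adm, dilates vessels, tightens the endothelial barrier and is made by endothelial cells in response to low oxygen and inflammation. Its receptor is the calcitonin receptor-like receptor (Calcrl), which reaches the cell surface only with a receptor activity-modifying protein: with Ramp2 or Ramp3 it binds adrenomedullin, and with Ramp1 it binds calcitonin gene-related peptide (CGRP). Angiotensinogen (Agt), secreted mainly by hepatocytes, is cut by renin to angiotensin I and by angiotensin-converting enzyme (Ace), which sits on endothelial membranes, to angiotensin II. Angiotensin II constricts vessels through the type 1 receptor, encoded in rats by Agtr1a and Agtr1b, and in the liver that receptor is known from hepatic stellate cells, the contractile and collagen-producing cells of the sinusoid.

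Library totals ranged from 25646531 to 46464289 expected counts. The acute and fibrosis libraries stood apart from the healthy and cirrhosis libraries before any of the 8 genes was considered. Summed levels of 9 LSEC markers (Pecam1, the tenth of the list, was not among the genes used) were 3792 to 4634 CPM (counts scaled to library size) in acute and 2694 to 3533 in fibrotic LSECs, against 13242 to 25654 in healthy and 14108 to 18569 in cirrhotic LSECs. The scavenger receptors Stab1 and Stab2 and the growth factor receptor Kdr were among the 7 of 9 that fell in acute LSECs, whereas the junctional cadherin Cdh5 differed by 0.39 on the log2 scale and did not pass the test. A list of 14 immediate early and heat shock genes that respond to tissue dissociation summed to 50549 to 84736 CPM in healthy, 27671 to 54804 in cirrhotic, 1512 to 5396 in acute and 4467 to 7018 in fibrotic LSECs. In acute LSECs 14 of the 14 were lower and in fibrotic LSECs 13 of 14. Sources used here do not say which groups were isolated or sequenced together, so disease stage and handling cannot be told apart in comparisons of these groups, and the part of these lists in the results below was not tested. In bulk RNA, fewer cells of a type and less RNA per cell cannot be told apart.

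Promoter sequence was at hand for 6 of the 8 genes in RefSeq (build GRCr8, not the Rnor_6.0 build to which the authors mapped the reads); Ramp2 and Agt had no entry. Each window held 300 bases and ran from before the start site to a little past it. The windows were searched on both strands for ACGTG and GCGTG, the core letters of hypoxia response elements, for TGANTCA, bound by AP-1 factors, and for TATAA of the TATA box. Shown here are the 150 bases just before the start site of the 5 genes whose window held a match, since Adm moved against the other 4 in acute and fibrotic LSECs. Each reads 5′ to 3′ on the strand of the gene, and capitals mark the matched letters. They lie at chr1:174180050-174180199 (Adm, plus strand), chr10:91409979-91410128 (Ace, plus strand), chr17:34435433-34435582 (Agtr1a, minus strand), chr9:99212966-99213115 (Ramp1, plus strand) and chr14:85741164-85741313 (Ramp3, plus strand).
Adm: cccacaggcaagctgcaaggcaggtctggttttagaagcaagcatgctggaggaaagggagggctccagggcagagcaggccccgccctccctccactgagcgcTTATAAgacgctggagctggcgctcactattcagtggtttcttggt
Ace: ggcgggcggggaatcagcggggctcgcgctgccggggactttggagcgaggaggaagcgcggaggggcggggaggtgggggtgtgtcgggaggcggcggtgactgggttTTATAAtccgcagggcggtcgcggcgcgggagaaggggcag
Agtr1a: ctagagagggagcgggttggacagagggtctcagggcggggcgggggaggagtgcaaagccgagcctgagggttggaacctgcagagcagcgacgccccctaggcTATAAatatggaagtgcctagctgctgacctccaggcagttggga
Ramp1: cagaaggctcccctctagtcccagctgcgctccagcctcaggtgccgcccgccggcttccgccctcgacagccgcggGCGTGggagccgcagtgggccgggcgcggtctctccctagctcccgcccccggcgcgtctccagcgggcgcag
Ramp3: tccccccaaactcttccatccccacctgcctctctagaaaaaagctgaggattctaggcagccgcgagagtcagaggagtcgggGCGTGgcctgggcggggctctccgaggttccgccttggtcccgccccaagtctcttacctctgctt

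TATAA stood at -45 to -41 from the start site in Adm and in Agtr1a and at -40 to -36 in Ace. In Adm and Ace the letters TTATAA held it on the other strand as well, 1 base further upstream. GCGTG stood at -73 to -69 in Ramp1 and at -66 to -62 in Ramp3. Neither ACGTG nor TGANTCA occurred in any of the 6 windows, Adm included, which says only that these letters are absent from this stretch. Of 33469 promoter windows of 300 bases, 26.2% held TATAA, 29.7% GCGTG, 19.3% ACGTG and 7.33% TGANTCA.

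Against healthy LSECs, Adm rose and the RAMP genes, Ace and Agtr1a fell in both earlier stages, and in cirrhosis Adm was below and Agtr1a above the healthy level. A gene was called at an adjusted p-value under 0.05 over all genes tested and a fold-change above 1.5, in limma-voom, and all 8 genes passed the low-count filter in every comparison. In acute LSECs, 7 of the 8 genes were called (1 higher, 6 lower), where 73.4% of 14317 genes tested were called, 35.5% higher and 37.9% lower. In fibrosis, 7 were called (2 higher, 5 lower), against 70.2% of all genes, 35.3% higher and 34.9% lower. In cirrhosis, 4 were called (2 higher, 2 lower), against 51.8% of all genes, 27.1% higher and 24.7% lower. Counts in either direction lay near the background shares. Lower genes made up more of the 8 than of all genes in acute and fibrotic LSECs, which was not tested, since the 8 were chosen with results known. The comparisons are described below by the sizes of the changes. CPM ranges did not overlap between acute and healthy libraries in 6 of the 8 genes (60.1% of all genes), between fibrotic and healthy libraries in 6 (58.7%) and between cirrhotic and healthy libraries in 0 (27.3%). The median log2 fold change of the 8 genes was -4.24 in acute, -2.3 in fibrotic and 0.11 in cirrhotic LSECs, beside -0.09, -0.03 and 0.07 over all genes tested. These comparisons share the 6 healthy libraries.

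**Figure D1:**
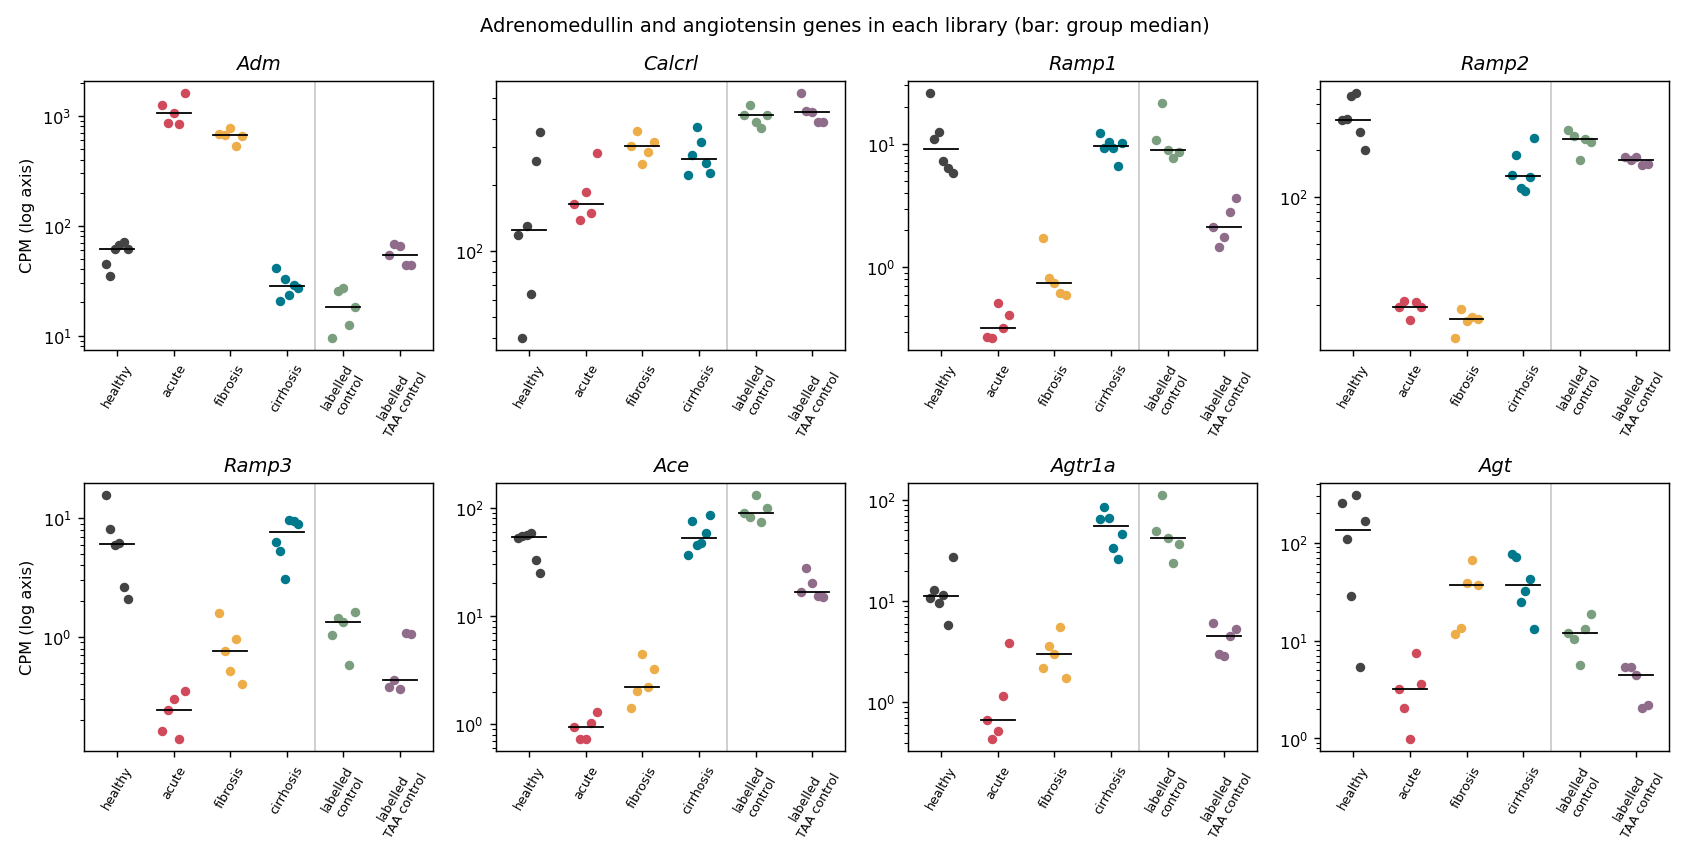
Level of each of the 8 genes in every library, in CPM on a log axis, with points for libraries and a bar at the group median; the grey line separates the 22 CCl4 libraries from the 10 libraries of the TAA experiment, which were scaled separately. Adm is highest in the acute and fibrosis groups, where Ramp1, Ramp2, Ramp3, Ace and Agtr1a are lowest.

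Adm (ENSRNOG00000027030), the ligand, was highest in acute LSECs and lowest in cirrhotic LSECs. Healthy LSECs had 35 to 71.6 CPM (median 61.7). The acute libraries had 1255, 855, 1069, 849 and 1604 CPM, and the fibrosis libraries 680, 663, 780, 535 and 657 CPM. Every acute library lay above every fibrosis library, and all 10 lay far above the healthy range. Cirrhotic LSECs had 20.5 to 41.1 CPM (median 28.1), and only the highest of these libraries reached into the healthy range. Adm was 20.2-fold higher in acute LSECs (log2 fold change 4.34, SE 0.226, adjusted p = 1.06e-08 in limma-voom). In fibrosis it was 12.6-fold higher (log2 fold change 3.66, SE 0.186, adjusted p = 1.15e-08 in limma-voom). In cirrhosis it was 2.01-fold lower than in healthy LSECs (log2 fold change -1.01, SE 0.205, adjusted p = 0.00144 in limma-voom).

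Between stages, Adm stepped down from acute to fibrosis and dropped from fibrosis to cirrhosis. The first step was small, with a log2 fold change of -0.63 (95% interval -1.01 to -0.26, adjusted p = 0.0264 in limma-voom), and the call was lost without acute replicate 1 or 8 or fibrosis replicate 13 or 16 (log2 fold changes of -0.59, -0.5, -0.63 and -0.56). The second was 24.5-fold (log2 fold change -4.62, SE 0.169, adjusted p = 4.84e-10 in limma-voom). In order of median level the stages ran acute, fibrosis, healthy, cirrhosis.

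Many but not all genes known to respond to low oxygen moved alongside Adm. Of a list of 12, 7 were higher and 2 lower in acute LSECs and 7 were higher and 1 lower in fibrotic LSECs. Among the higher were Vegfa (log2 fold changes 2.64 and 2.47), an endothelial growth factor, and Slc2a1 (3.38 and 3.58), a glucose transporter. The lower ones were Car9 in both stages (-3.34 and -1.86) and Ldha in acute LSECs (-0.6). The list summed to 1175 to 1975 CPM in healthy, 1825 to 3115 in acute, 2242 to 2741 in fibrotic and 1044 to 1362 in cirrhotic LSECs. Its median was highest in fibrosis (2600 CPM, against 2192 in acute LSECs), whereas that of Adm was highest in acute LSECs. In cirrhosis 4 of the 12 were higher and 3 lower than in healthy LSECs. The part of this list in the Adm result was not tested.

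Calcrl (ENSRNOG00000054695), the receptor that the RAMPs accompany, was not called lower in any stage. Its healthy level was widely scattered, 40.3 to 350 CPM (median 125), with 259 and 350 CPM in healthy replicates 5 and 6 and at most 130 in the other 4. The acute libraries had 165, 139, 187, 150 and 280 CPM, and the fibrosis libraries 303, 355, 250, 285 and 315 CPM. Cirrhotic LSECs had 222 to 369 CPM (median 264). All 3 diseased groups overlapped the healthy range, and the fibrosis and cirrhosis libraries lay above its median, with fibrosis replicate 13 (355 CPM) and cirrhosis replicate 3 (369 CPM) above its highest library.

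In acute LSECs the difference in Calcrl did not pass the test (log2 fold change 0.56, 95% interval -0.5 to 1.62, adjusted p = 0.309 in limma-voom). In fibrosis Calcrl was 2.57-fold higher (log2 fold change 1.36, SE 0.476, adjusted p = 0.0208 in limma-voom), a call lost in edgeR's quasi-likelihood test (adjusted p = 0.0661). In cirrhosis it was 2.16-fold higher (log2 fold change 1.11, SE 0.434, adjusted p = 0.0419 in limma-voom), but the adjusted p was 0.124 in edgeR and 0.0909 in DESeq2, and the call was lost when any 1 library other than healthy replicate 5 or 6 was left out. Fibrotic exceeded acute LSECs by 1.8-fold (log2 fold change 0.85, SE 0.173, adjusted p = 0.00991 in limma-voom). Cirrhotic and fibrotic LSECs did not differ by more than their spread (log2 fold change -0.2, 95% interval -0.5 to 0.11). The medians ran from fibrosis through cirrhosis and acute to healthy, and the neighbours fibrosis and cirrhosis, cirrhosis and acute, and acute and healthy were not called different.

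Ramp2 (ENSRNOG00000020415), the partner that gives Calcrl its main adrenomedullin receptor in endothelium, was lost almost in step in both earlier stages. Healthy LSECs had 200 to 467 CPM (median 315). Acute libraries had 19.6, 21.2, 16.2, 20.9 and 19.4 CPM, and fibrosis libraries 12.4, 18.9, 15.8, 16.9 and 16.4 CPM. The 10 diseased libraries lay within a narrow band, below every healthy one by a wide gap. Cirrhotic LSECs had 109 to 241 CPM (median 136), between these levels, and only the highest reached the healthy range. Ramp2 was 16.2-fold lower in acute LSECs (log2 fold change -4.02, SE 0.215, adjusted p = 1.28e-08 in limma-voom) and 19-fold lower in fibrosis (-4.25, SE 0.226, adjusted p = 1.56e-08). In cirrhosis it was 2.23-fold lower than in healthy LSECs (log2 fold change -1.15, SE 0.248, adjusted p = 0.00197 in limma-voom) and 8.87-fold higher than in fibrosis (log2 fold change 3.15). Acute and fibrotic LSECs did not differ by more than their spread (log2 fold change -0.19, 95% interval -0.44 to 0.07). Expected counts of Ramp2 were not whole numbers in any of the 32 libraries, unlike those of the other 7 genes, so RSEM shared out part of its reads by estimate and its level is less certain.

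Ramp1 (ENSRNOG00000019926), the CGRP receptor partner, and Ramp3 (ENSRNOG00000053766), the other adrenomedullin partner, fell in the same stages, and neither was called different from healthy LSECs in cirrhosis. Ramp1 had 5.87 to 25.8 CPM in healthy LSECs (median 9.08), and 0.271, 0.27, 0.519, 0.323 and 0.414 CPM in acute LSECs. In fibrosis it had 1.72, 0.827, 0.748, 0.619 and 0.602 CPM, and in cirrhosis 6.6 to 12.2 CPM (median 9.74). Acute, fibrotic and healthy libraries formed separate ranges in that order, and the cirrhotic range lay inside the healthy one. Ramp1 was 26.7-fold lower in acute LSECs (log2 fold change -4.74, SE 0.553, adjusted p = 7.99e-06 in limma-voom) and 10.9-fold lower in fibrosis (-3.45, SE 0.516, adjusted p = 7.29e-05). Its difference in cirrhosis was near 0 (log2 fold change -0.09, 95% interval -0.79 to 0.62) and changed sign under other scalings, where it was 0.05 with upper-quartile factors and 0.24 with library size alone.

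Ramp3 had 2.07 to 15.7 CPM in healthy LSECs (median 6.04), and 0.162, 0.243, 0.3, 0.138 and 0.35 CPM in acute LSECs, from 6 to 11 counts a library. In fibrosis it had 1.58, 0.766, 0.52, 0.957 and 0.401 CPM, and in cirrhosis 3.07 to 9.58 CPM (median 7.6). Again the acute libraries were lowest, the fibrosis libraries next without overlap, and cirrhotic and healthy libraries were mixed. Ramp3 was 22.1-fold lower in acute LSECs (log2 fold change -4.46, SE 0.692, adjusted p = 8.29e-05 in limma-voom) and 6.48-fold lower in fibrosis (-2.7, SE 0.626, adjusted p = 0.00193). In cirrhosis the difference of 0.3 on the log2 scale (95% interval -0.7 to 1.3) did not pass the test, and its sign was the opposite with library weights (-0.09). From acute to fibrosis, Ramp1 rose 2.53-fold (adjusted p = 0.0251) and Ramp3 3.52-fold (adjusted p = 0.0183) in limma-voom, and both calls were lost without acute replicate 1.

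Markers of blood and vessel cells fell in the same stages as these receptor partners. Of 9 macrophage markers, 7 were lower and 0 higher in acute LSECs and 8 in fibrosis, of 8 tested in each, among them the Kupffer cell lectin gene Clec4f (log2 fold changes -4.4 and -4.91) and Adgre1 (-2.98 and -3.13). In cirrhosis 0 were lower and 1 (Timd4, 1.99) was higher. Timd4 was at 0 counts throughout the acute and fibrosis groups. The sum of the markers was 281 to 2697 CPM in healthy, 66.5 to 201 in acute, 28.3 to 172 in fibrotic and 681 to 2558 in cirrhotic LSECs. Of 8 lymphocyte markers, 6 were lower in acute LSECs, 4 in fibrosis and 1 in cirrhosis (Cd79a, -1.37), and 0 were higher. The other markers of this list in acute LSECs, Cd3d and Ms4a1, were not tested there. The list summed to 18.3 to 240 CPM in healthy, 2.9 to 8.33 in acute, 4.65 to 48.2 in fibrotic and 20.3 to 55.4 in cirrhotic LSECs. Of 8 markers of vascular and lymphatic endothelium, 7 were lower in acute LSECs and 7 in fibrosis (1 higher), whereas 6 were higher and 1 lower in cirrhosis, with sums of 1495 to 5050, 41.6 to 68, 76.9 to 250 and 3610 to 7475 CPM in healthy, acute, fibrotic and cirrhotic LSECs. The part of these cells in the Ramp1, Ramp2 and Ramp3 levels was not tested.

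**Figure D2:**
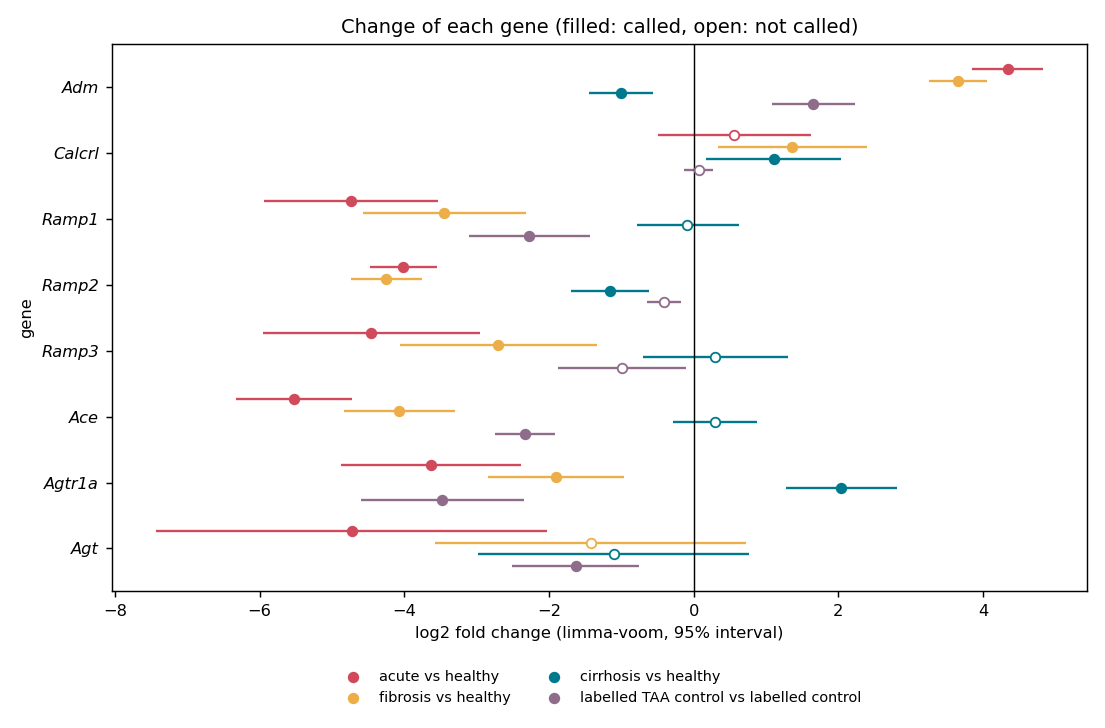
Log2 fold change of each gene with its 95% interval from limma-voom, for acute, fibrotic and cirrhotic against healthy LSECs and for the group labelled TAA control minus the group labelled control. Filled points passed the call and open ones did not; Adm lies at 4.34 and 3.66 in the first and second comparison, while Ramp1, Ramp2, Ramp3, Ace and Agtr1a lie below 0.

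Since Calcrl and the RAMPs work as pairs, their counts were also set against each other within each library, a ratio that does not depend on scaling between libraries. It was chosen after the values were seen and is given without a test. The log2 ratio of Ramp2 to Calcrl counts was -0.81 to 2.98 in healthy LSECs (median 1.58), -3.85 to -2.71 in acute, -4.61 to -3.98 in fibrotic and -1.68 to 0.09 in cirrhotic LSECs. Counts were not divided by transcript length, so a ratio above or below 0 says nothing of which transcript was more abundant, but it can be followed from group to group. Every acute and fibrotic ratio lay below every healthy and cirrhotic one. For Ramp1 the medians were -3.25 in healthy, -8.94 in acute, -8.72 in fibrotic and -4.99 in cirrhotic LSECs, and for Ramp3 -3.91, -9.58, -8.83 and -5.1. The lowest healthy ratios of all 3 partners were those of the libraries with the most Calcrl.

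**Figure D3:**
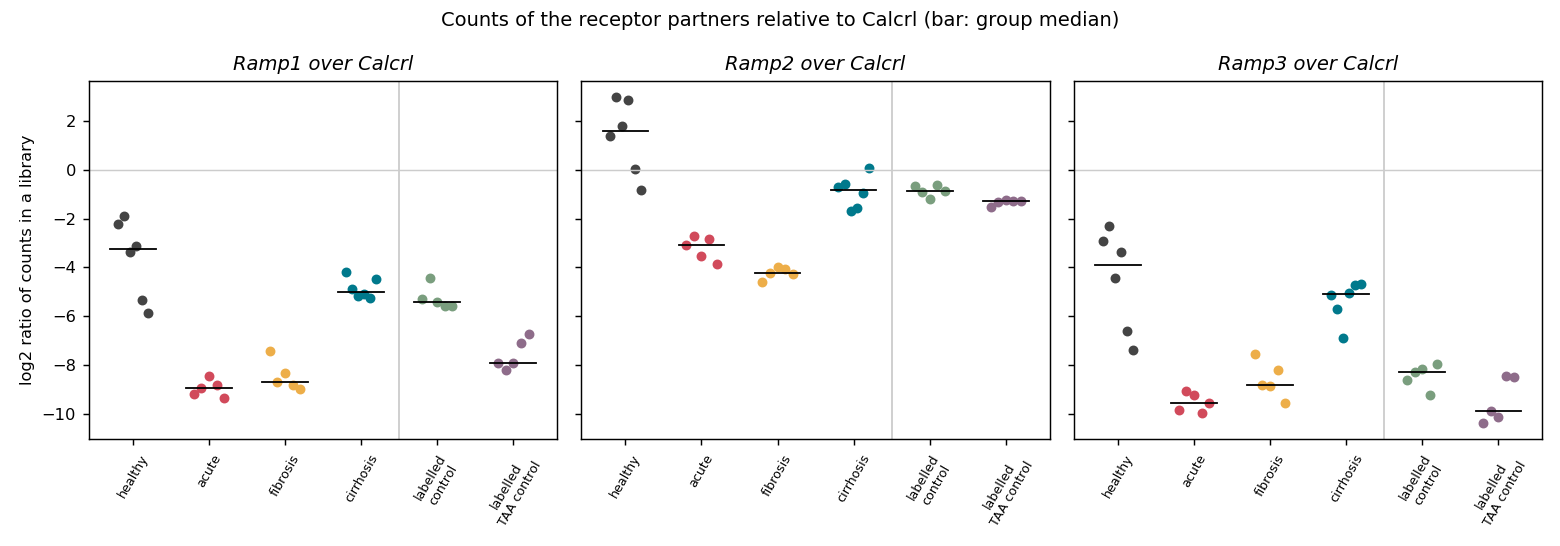
Log2 ratio of the counts of Ramp1, Ramp2 and Ramp3 to those of Calcrl in each library, one panel per partner, with points for libraries and a bar at the group median. In each panel the acute and fibrosis libraries lie below the healthy and cirrhosis libraries, and the median Ramp2 ratio runs from 1.58 in healthy to -4.23 in fibrotic LSECs.

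Healthy replicates 5 and 6 also set the lower end of other genes. They had 33.1 and 24.9 CPM of Ace where the other 4 had 52.1 to 57.9, the lowest Ramp1, Ramp2 and Ramp3 levels of the group, and its highest Calcrl. With either of them left out, the acute and fibrotic calls of the RAMPs, Ace and Agtr1a were kept.

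Agt (ENSRNOG00000018445), the angiotensin precursor, moved largely with the hepatocyte markers of the libraries. Healthy LSECs had 5.35 to 308 CPM (median 137). Acute libraries had 3.22, 2.05, 0.983, 7.42 and 3.6 CPM, fibrosis libraries 11.8, 13.4, 39.1, 66 and 37 CPM, and cirrhotic libraries 13.3 to 76.2 CPM (median 37.4). Healthy replicate 5 alone had 5.35 CPM, inside the acute range, while the other 5 healthy libraries had 28.9 CPM or more. Agt was 26.5-fold lower in acute LSECs (log2 fold change -4.73, SE 1.24, adjusted p = 0.0039 in limma-voom), and without healthy replicate 5 the log2 fold change was -5.51 (adjusted p = 3.98e-05 in limma-voom). The differences in fibrosis (log2 fold change -1.42, 95% interval -3.57 to 0.72) and in cirrhosis (-1.1, 95% interval -2.98 to 0.77) did not pass. Without that library both were called lower (-2.2, adjusted p = 0.0106, and -1.88, adjusted p = 0.0156, in limma-voom), and DESeq2 called both lower with all libraries (-2, adjusted p = 0.00799, and -1.78, adjusted p = 0.014). Fibrotic LSECs had 10.2-fold more Agt than acute LSECs (log2 fold change 3.35, adjusted p = 0.0148 in limma-voom).

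The 12 hepatocyte markers, among them albumin (Alb), were all above 0 in each group and summed to 1363 to 30251 CPM in healthy, 149 to 960 in acute, 1400 to 5547 in fibrotic and 3314 to 16257 in cirrhotic LSECs. In acute LSECs 12 of 12 were lower, in fibrosis 7 of 12 and in cirrhosis 2 of 12. Healthy replicate 5, lowest in Agt, was also lowest in these markers. Per 1000 CPM of the marker sum, Agt was 3.89 to 16.3 CPM in healthy, 6.36 to 9.95 in acute, 8.46 to 12 in fibrotic and 3.73 to 6.07 in cirrhotic LSECs. The acute range of this ratio lay inside the healthy one, while every acute and fibrotic ratio lay above every cirrhotic one. Median Agt was alike in fibrosis (37 CPM) and cirrhosis (37.4 CPM), at median marker sums of 3094 and 7803 CPM. The ratio was chosen after the values were seen and was not tested.

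Ace (ENSRNOG00000062101), the enzyme that makes angiotensin II, had the largest fall of the 8 genes in acute LSECs. Healthy LSECs had 24.9 to 57.9 CPM (median 53.3). Acute libraries had 0.947, 0.73, 0.737, 1.04 and 1.31 CPM, from 27 to 45 counts, and fibrosis libraries 1.41, 2.05, 4.45, 2.22 and 3.27 CPM. Cirrhotic LSECs had 36.2 to 84.8 CPM (median 52.5). Acute, fibrotic and healthy ranges were separate in that order, and the cirrhotic range covered the healthy median. Ace was 45.9-fold lower in acute LSECs (log2 fold change -5.52, SE 0.371, adjusted p = 7.36e-08 in limma-voom) and 16.8-fold lower in fibrosis (-4.07, SE 0.355, adjusted p = 8.53e-07). It was 2.82-fold higher in fibrosis than in acute LSECs (log2 fold change 1.5, adjusted p = 0.0131 in limma-voom) and 21.5-fold higher in cirrhosis than in fibrosis (log2 fold change 4.43, adjusted p = 6.59e-07). Against healthy LSECs the cirrhotic level did not pass the test (log2 fold change 0.3, 95% interval -0.28 to 0.88), and its sign was the opposite with library weights (-0.05).

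Agtr1a (ENSRNOG00000018346), the angiotensin II receptor, fell with Ace in the earlier stages and had the largest rise of the 8 genes in cirrhosis. Healthy LSECs had 5.81 to 27.4 CPM (median 11.1). Acute libraries had 0.677, 0.433, 0.519, 1.17 and 3.88 CPM, fibrosis libraries 2.17, 3.61, 2.99, 5.57 and 1.75 CPM, and cirrhotic libraries 26.1 to 85.9 CPM (median 55.7). Both early stages lay below the whole healthy range, and only the lowest cirrhotic library fell within it. Agtr1a was 12.4-fold lower in acute LSECs (log2 fold change -3.63, SE 0.574, adjusted p = 9.63e-05 in limma-voom) and 3.74-fold lower in fibrosis (-1.9, SE 0.431, adjusted p = 0.00162). In cirrhosis it was 4.12-fold higher than in healthy LSECs (log2 fold change 2.04, SE 0.359, adjusted p = 0.000571 in limma-voom) and 16-fold higher than in fibrosis (log2 fold change 4, adjusted p = 9.29e-06). The rise from acute to fibrosis (log2 fold change 1.78, adjusted p = 0.0383 in limma-voom) was not called in edgeR (adjusted p = 0.125) or DESeq2 (adjusted p = 0.0703). Agtr1b, a near-identical copy that also encodes a type 1 receptor, and Agtr2 were at 0 counts in all 32 libraries.

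Stellate cell and fibroblast markers moved with Agtr1a in cirrhosis. Of 11 markers in the tables (Col1a2 was not used), 8 were higher and 0 lower in cirrhotic than in healthy LSECs, among them Pdgfrb (log2 fold change 2.48) and Lrat (1.81). Their sum was 291 to 789 CPM in healthy and 639 to 2039 CPM in cirrhotic LSECs, and no marker was at 0 throughout a group. Per 1000 CPM of that sum, Agtr1a was 16.5 to 36.7 CPM in healthy and 27.5 to 50.3 in cirrhotic LSECs, ranges that overlap. In acute and fibrotic LSECs the same sum was 1316 to 2116 and 1278 to 1714 CPM, above healthy. In acute LSECs the sum did not follow most of its markers. There 7 of 10 markers tested were lower, Pdgfrb (-2.98) and Lrat (-2.55) included. Only Reln, the gene of the extracellular protein reelin, was called higher in acute LSECs (log2 fold change 3.37). In fibrotic LSECs the markers went both ways, with 4 of 10 lower and 3 higher, namely Reln (3.13), the collagen gene Col1a1 (2.28) and the smooth muscle actin gene Acta2 (4.49). Agtr1a per 1000 CPM of the sum was then 0.204 to 2.24 in acute and 1.2 to 3.57 in fibrotic LSECs. The part of these cells in the Agtr1a levels was not tested.

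**Figure D4:**
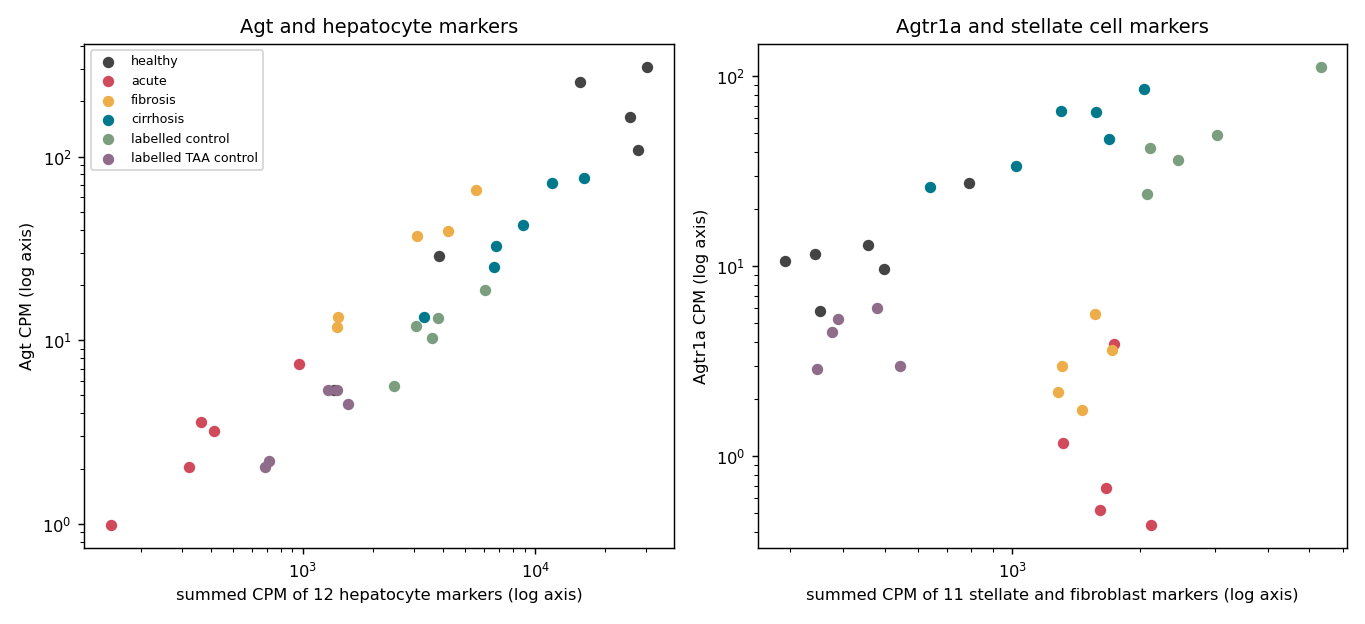
Agt against the summed CPM of 12 hepatocyte markers (left) and Agtr1a against that of 11 stellate cell and fibroblast markers (right), one point per library, all axes logarithmic. Agt runs largely with the hepatocyte sum from the acute library with 0.983 CPM to the healthy library with 308 CPM. The acute and fibrosis libraries lie low in Agtr1a at stellate and fibroblast marker sums of 1278 to 2116 CPM. In acute LSECs most of the markers in that sum were nonetheless lower than in healthy LSECs. CCl4 and TAA libraries were scaled separately.

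Set directly against each other, the stages placed 7 of the 8 genes apart between acute and fibrotic LSECs (6 higher and 1 lower in fibrosis), a comparison in which 11% of 13931 genes were called, 10.2% higher and 0.732% lower. Their ranges did not overlap in 5 genes, against 18.7% of all genes, and the median log2 fold change of the 8 was 1.42, beside 0 over all genes tested. This count depended on the fit: 3 genes (Calcrl, Ace and Agt) were called without acute replicate 1, and 0 in a single limma-voom fit over the 4 CCl4 groups, where adjusted p-values ran from 0.0557 (Adm) to 0.268 (Calcrl) among the 7 and 6 had an unadjusted p-value under 0.05. The tests between these groups alone called 6 in edgeR and 6 in DESeq2. Between cirrhosis and fibrosis 6 were called (5 higher, 1 lower in cirrhosis), against 63.8% of all genes, 34.3% higher and 29.5% lower, and ranges did not overlap in 6 (62.9%). Between cirrhosis and acute injury 7 were called (6 higher, 1 lower), against 69.3% of all genes, 37.5% higher and 31.8% lower, and ranges did not overlap in 7 (65.5%). There the largest differences were those of Ace (57.6-fold higher, log2 fold change 5.85, SE 0.454), Agtr1a (52-fold higher, log2 fold change 5.7, SE 0.672) and Adm (40.1-fold lower, log2 fold change -5.32, SE 0.199). Calcrl, 1.49-fold higher in cirrhosis (adjusted p = 0.0132 in limma-voom), stayed just under the fold threshold. It was called in 13 of 23 alternatives, among them DESeq2 and the one without a fold threshold.

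In the TAA experiment, 5 of the 8 genes differed between the group labelled TAA control and the group labelled control (1 higher, 4 lower), where 27.6% of 14376 genes were called, 12.7% higher and 14.9% lower. Ranges did not overlap in these 5, against 35.1% of all genes. Adm had 54.2, 68.7, 65.6, 43.7 and 44 CPM in the group labelled TAA control and 9.59, 25.6, 26.8, 12.5 and 18.3 CPM in the group labelled control. All 5 libraries of the former were above the latter, a 3.15-fold difference (log2 fold change 1.65, SE 0.262, adjusted p = 0.000535 in limma-voom). Ace had 16.5, 27.5, 20.3, 15.3 and 15.1 CPM against 88.8, 82.7, 131, 74.3 and 99.7 CPM. This enzyme was 5.04-fold lower in the group labelled TAA control, without overlap (log2 fold change -2.33, SE 0.189, adjusted p = 1.42e-05 in limma-voom). Agtr1a had 6.06, 3, 2.88, 4.49 and 5.26 CPM against 49, 112, 41.9, 24 and 36.4 CPM. Its difference was the largest of the 8, 11.1-fold lower (log2 fold change -3.48, SE 0.511, adjusted p = 0.000347 in limma-voom).

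Ramp1 had 2.12, 1.45, 1.75, 2.81 and 3.64 CPM in the group labelled TAA control against 10.8, 21.7, 9, 7.67 and 8.66 CPM, again without overlap (4.85-fold lower, log2 fold change -2.28, SE 0.379, adjusted p = 0.000698 in limma-voom). Agt had 5.38, 5.33, 4.5, 2.03 and 2.21 CPM against 12, 10.3, 5.66, 13.2 and 18.8 CPM (3.09-fold lower, log2 fold change -1.63, SE 0.4, adjusted p = 0.00631). Calcrl, Ramp2 and Ramp3 were not called. Calcrl differed by 0.07 on the log2 scale (95% interval -0.13 to 0.27), and Ramp2, 1.33-fold lower (adjusted p = 0.00793), was under the fold threshold. Ramp3, with 11 to 56 counts a library, had a log2 fold change of -0.99 (adjusted p = 0.0623 in limma-voom) and was called without replicate 4 of the group labelled control or replicate 14 or 15 of the group labelled TAA control. Those last 2 libraries were the most alike of any pair within a group (chi-square of 3.05 for each degree of freedom, and at least 25.2 for other pairs) and were kept as separate libraries. The sources used here do not say whether they came from 1 rat. With either left out, so that the pair counted once, the calls of Adm, Ace, Agtr1a, Ramp1 and Agt were kept, with adjusted p-values in limma-voom of at most 0.00106, 7.99e-05, 0.00128, 0.00192 and 0.017.

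Markers of other cells also differed between these groups. In the group labelled TAA control, stellate cell and fibroblast markers summed to 346 to 544 CPM against 2073 to 5322 CPM (8 of 11 lower), and hepatocyte markers to 687 to 1568 CPM against 2469 to 6063 CPM (9 of 12 lower, 1 higher). Per 1000 CPM of the stellate sum, Agtr1a was 5.52 to 13.5 CPM against 11.6 to 21.1 CPM, and per 1000 CPM of the hepatocyte sum Agt was 2.87 to 4.15 CPM against 2.29 to 3.92 CPM. LSEC markers summed to 22783 to 30417 CPM against 19486 to 24563 CPM. Dissociation response genes were higher (13 of 14, 51268 to 71012 CPM against 15381 to 32742 CPM), and of the hypoxia genes 0 were higher and 4 lower while Adm was higher. The part of these lists in the differences was not tested.

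Other genes of these pathways were followed in 3 lists of 50 genes (adrenomedullin and CGRP, angiotensin, and kinin genes), of which 48 were in the tables under a single identifier. In acute LSECs 10 were higher and 19 lower of 35 tested, where 35.5% of all genes were higher and 37.9% lower. The median log2 fold change of the lists was -0.99 beside -0.09 over all genes. In fibrosis 11 were higher and 15 lower of 36 (median -0.61 beside -0.03), against 35.3% and 34.9% of all genes. In cirrhosis 14 were higher and 11 lower of 38 (median 0.24 beside 0.07), against 27.1% and 24.7%. The counts were not tested against these shares. Named here are called genes with large changes among 28 with enough expression. Gpr182, an atypical receptor of sinusoidal endothelium related to the adrenomedullin-binding Ackr3, fell most in acute (log2 fold change -5.23, SE 0.158) and fibrotic LSECs (-5.13, SE 0.19), and by less in cirrhosis (-1.47, SE 0.213). Its healthy libraries had 1035 to 2052 CPM and its acute libraries 37.6 to 41.9 CPM. Ackr3, a scavenger of adrenomedullin and chemokines, fell in acute LSECs (-2.79, SE 0.316). The β-arrestins, which uncouple and internalise G protein-coupled receptors, fell together in acute LSECs (Arrb1 -2.51, Arrb2 -3.3) and in fibrosis (Arrb1 -2.81, Arrb2 -3.4).

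In the cyclic AMP arm downstream of the adrenomedullin receptor, the phosphodiesterase gene Pde4b, whose product degrades cyclic AMP, rose in acute (log2 fold change 3.31, SE 0.283), fibrotic (3.37, SE 0.292) and cirrhotic LSECs (1.65, SE 0.261). The cyclase genes, whose products make cyclic AMP, went both ways. Adcy4 fell in acute (-2.48), fibrotic (-2.7, SE 0.225) and cirrhotic LSECs (-0.97), as did Adcy6 (-2.33, -2.14 and -0.67), whereas Adcy3 rose (0.76, 1.81 and 1.06). Of the catalytic subunits of protein kinase A, which cyclic AMP activates, Prkaca fell (-0.82, -1.18 and -1.19) and Prkacb rose (0.69, 0.93 and 0.65) in the same 3 stages. Adcy6, Adcy3, Prkaca and Prkacb were added after their values were seen, and Adcy3 had less expression than the rule for named genes asks (average log2 CPM 2.42). On the angiotensin side, genes also went both ways. The protease gene Ctsd fell (-2.73 in fibrosis and -1.73 in cirrhosis). The protease gene Thop1 was higher in acute (1.24) and fibrotic LSECs (0.7) and lower in cirrhosis (-1.45). In cirrhosis the G protein gene Gna11 was lower (-1.56), whereas the G protein gene Gnaq (1.04) and the regulator gene Rgs2 (1.1) were higher. Gnaq was added after its values were seen. Kininogen (Kng1), a hepatocyte product and precursor of bradykinin, was lower in acute LSECs (-4.07, SE 1.26). Between acute and fibrotic LSECs, 7 list genes were higher and 0 lower in fibrosis, against 10.2% and 0.732% of all genes. Among the 7 were Kng1 (3.74) and the G protein regulator gene Rgs2 (1.17). In the TAA experiment 3 were higher and 14 lower of 38 in the group labelled TAA control, against 12.7% and 14.9% of all genes. There Kng1 (-2.82), Pde4b (-1.98), Pam, the enzyme that amidates adrenomedullin (-1.15), and Ackr3 (-0.82) were lower and Arrb2 (1.2) was higher.

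**Figure D5:**
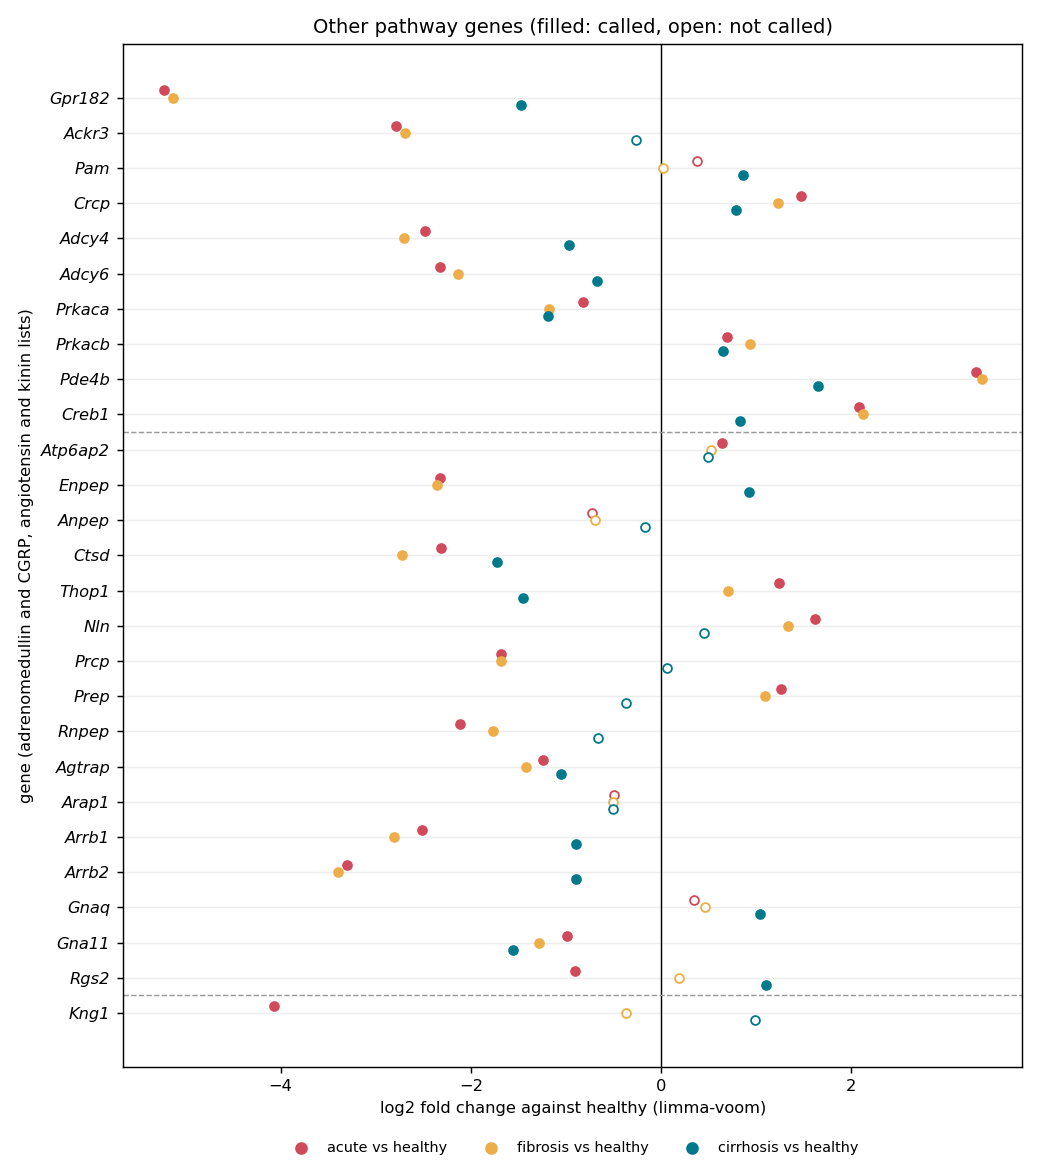
Log2 fold change against healthy LSECs of 27 other pathway genes tested in all 3 stages with enough expression, one row per gene, with dashed lines between the adrenomedullin and CGRP, angiotensin and kinin lists. Filled points passed the call; acute and fibrosis points of a gene often lie side by side, as for Gpr182 at -5.23 and -5.13 and Pde4b at 3.31 and 3.37, while cirrhosis points lie nearer 0 for both.

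The kinin receptor gene Bdkrb2, chosen after its values were seen, had 0 to 0.275 CPM in healthy, 0.0811 to 0.669 in acute, 0.451 to 1.27 in fibrotic and 0.423 to 2.17 in cirrhotic LSECs.

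For each of the 8 genes, the genes with the closest pattern over the 22 CCl4 libraries were sought among 8559 expressed genes, by the root mean square difference of centred log2 CPM, where smaller is closer. The 22 libraries fall into groups that differ in most genes, so closeness describes shared stage differences. Agt was closest to F12 (0.167), coagulation factor XII, then to Tmprss6 (0.25) and Serpinf1 (0.289), all known as hepatocyte products. Agtr1a was closest to the matrix genes Bgn (0.473) and Col6a1 (0.521) and to Serpine2 (0.551). Ramp2 was closest to Coro2b (0.254), the endothelial receptor gene Acvrl1 (0.261) and the laminin gene Lamb2 (0.275). Calcrl was closest to Mef2a (0.252), Fmnl2 (0.263) and Clk1 (0.292). Ramp1 was closest to Cst3 (0.448), Irf8 (0.459) and Ezr (0.461), and Ramp3 to Ezr (0.352), Aim1 (0.397) and Tnfrsf1b (0.427). Ace was closest to Sema3f (0.389), Bhlhe40 (0.516) and Apol3 (0.544). Adm was closest to Gtse1 (0.614), Aen (0.647) and Igf2bp2 (0.668). The 8 genes themselves varied by different amounts over these libraries, with a standard deviation of 0.794 for Calcrl and of 2.26 for Adm, so the differences are not comparable from one of the 8 to another.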

How the data were processed

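RNA of rat LSECs was sequenced in 32 libraries from strand-specific poly(A) preparations. The authors aligned reads with STAR (genome Rnor_6.0), ran RSEM for quantification and deposited its expected counts, 1 set per library, without normalization or pooling. Versions of these tools are not given in the sources used here. RSEM divides by estimate the reads that several genes could have produced. Totals were 25646531 to 46464289 a library, and acute Ramp3, at 6 to 11 counts, had the lowest counts of the 8 genes. Intervals are limma's 95% intervals.

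The deposited expected counts, rounded, were filtered with filterByExpr, scaled with TMM and tested with limma-voom between 2 groups at a time (R 4.3.3, limma 3.58.1, edgeR 4.0.16). DESeq2 1.42.0 and edgeR's quasi-likelihood test were alternatives. The study's methods name TMM, voom, limma and a fold-change above 1.5 with an unadjusted p-value. Here Benjamini-Hochberg adjusted p-values under 0.05 over all genes tested were used with the same fold-change. Printed adjusted p-values are from limma-voom unless another tool is named. CPM used TMM factors over the 22 CCl4 libraries and, separately, the 10 TAA libraries, so levels are not compared across the experiments. Python 3.11.15 with matplotlib 3.10.9 drew the figures.

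Groups came from the sample labels. The labels of cirrhotic libraries give no duration, which was taken from the series design. Each library was treated as a separate rat. The 8 genes and all lists were chosen with earlier results of these data known. Named pathway genes were tested in all 3 comparisons with healthy LSECs, reached an average log2 CPM of 3 or more over the CCl4 libraries and were among the 6 largest called changes of a comparison. Outside this rule stand Adcy3, Adcy6, Prkaca, Prkacb, Gnaq and Bdkrb2, chosen after their values were seen, and Agtr1b and Agtr2, named for their 0 counts. The genes of most similar pattern are the 3 with the smallest difference from each gene. The fits were tested on simulated data. Gene positions in the mapped build were not used here. Results of 2 of the pathway genes are not reported here.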

Additional observations from a re-analysis of the deposited data

Results flagged for a closer look

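Among 48 groups of 5 or 6 libraries checked for a library far from the rest (8 genes in 6 groups), 1 stood out, where chance gives about 1 in 20, or about 2.4 of 48. Ramp1 in fibrosis replicate 12 had a log2 CPM of 1.15, and the other 4 fibrosis libraries had 0.14 to 0.41. Adm and Agtr1a each moved against healthy LSECs in one direction in the earlier stages and in the other in cirrhosis, and the direct comparisons of the stages tested that difference. Adm had a log2 fold change of -4.62 from fibrosis to cirrhosis and of -5.32 from acute injury to cirrhosis. Agtr1a had log2 fold changes of 4 and 5.7 in the same comparisons. All 4 were called in limma-voom and kept their call in every alternative run for them.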

How the results depend on the processing

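Alternatives were edgeR, DESeq2, unadjusted p-values, no fold threshold, DESeq2 size factors, upper-quartile factors, library size alone, no low-count filter, a CPM filter, library weights, one fit over the 4 CCl4 groups, the replicate block and each library left out. Of 1238 values over the 8 genes, 1164 kept direction and call, 38 lost the call, 28 gained it and 8 reversed. The reversals were in cirrhosis against healthy LSECs, none of them called, with Ramp1 at 0.05 (upper quartile), 0.24 (library size), 0.01 (CPM filter) and -0.28 to 0.2 with a library left out, Ramp3 at -0.09 (library weights) and -0.04 to 0.62 with a library left out, and Ace at -0.05 (library weights). Fibrotic against acute LSECs was the least stable comparison. Of the 8 genes, 7 were called, 3 to 7 with a library left out and 0 in one fit over the 4 groups. Of the pathway lists, 7 were called, 11 without a fold threshold and 4 in one fit. Of all genes, 1529 were called, 2826 without a fold threshold, 2346 with library weights, 746 in one fit and 1011 to 2166 with a library left out. In the TAA experiment 3970 genes were called and 7139 without a fold threshold. With the CPM filter Ramp1 and Ramp3 were not tested between fibrotic and acute LSECs. The causes were not tested.

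Library size alone moved the median log2 fold change of all genes by 0.41 in acute, 0.4 in fibrotic and 0.35 in cirrhotic LSECs, and higher genes were then 60.9% of calls in fibrosis (50.3% with TMM) and 71.3% in cirrhosis (52.2% with TMM). Replicate numbers gave no clear sign of pairing, with correlations of same-numbered libraries from -0.24 to 0.29. Between acute and healthy LSECs, however, replicates 2 and 4 matched their own number best. Low correlations cannot exclude that same-numbered libraries were handled together. The replicate block kept only libraries whose replicate number occurred in both groups. Between cirrhotic and healthy LSECs it kept every library. In the comparisons of acute with healthy and with cirrhotic LSECs, the libraries changed along with the model. There acute replicate 8 was left out, and so were healthy or cirrhosis replicates 5 and 6. In these fits Calcrl was called higher in acute than in healthy LSECs (1.12, adjusted p = 0.00244 in limma-voom). It was also called higher in cirrhotic than in acute LSECs (0.87, adjusted p = 0.000846 in limma-voom). The part of the block and of the libraries left out was not separated.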
